A study of Mus musculus with 20 samples.

Results

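The nuclear-encoded subunits of the mitochondrial respiratory chain and ATP synthase were followed in dural CNS-associated macrophages (dCAMs), the resident macrophages of the outermost brain covering. Members were chosen by symbol alone: the lettered subunit families of Nduf, the Uqcr family, Sdha to Sdhd, the lettered Cox subunit families and the Atp5 family. Symbols containing -ps and the Ndufaf assembly factors were left out. Of the symbols kept, Ndufb4c and Ndufs6b are listed as processed pseudogenes in the GENCODE M21 annotation, and Ndufb4c is counted in complex I. Of 33243 gene symbols, 89 matched, and 85 of these had at least 10 counts over the 20 libraries. Those 85 members were all among the 16632 genes tested, 39 of them in complex I, 4 in complex II, 8 in complex III, 16 in complex IV and 18 in complex V, and Ndufa4 and Ndufa4l2 were counted with complex IV. The 4 symbols below the minimum were Cox8b and Ndufb11b, each with 1 count in all, and Cox8c and Ndufs6b, with 0.

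All animals were Ccr2CreERT2/+ R26tdT/tdT mice, in which tamoxifen switches on the red reporter tdT in Ccr2-expressing cells, which their progeny then keep. Every animal was first given BLZ945, an inhibitor of the CSF1 receptor that removes macrophages, at 200 mg per kg over 7 days. Tamoxifen was given at 2 mg per day with the last BLZ945 dose and again 2 and 4 days later. At 8 weeks after BLZ945, 5 mice received lipopolysaccharide (LPS, a bacterial cell-wall component) at 2.5 mg per kg and 5 received PBS (CTL), and the dura was taken 12 h later. From each of the 10 mice a tdT+ and a tdT- population of dCAMs was sorted on CD45, CD11b and CD206 and sequenced in bulk, which gave 4 groups of 5 libraries. No mice without BLZ945 are part of the comparison, and tdT- cells can include cells that missed the label.

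Library totals ran from 6017650 to 18925908 counts, with at most 12208203 in a CTL and at least 12073566 in an LPS library. The tdT- CTL group stood apart: 6671 to 9365 genes reached 10 counts there, against 10024 to 11987 in the other 3 groups. Levels are given as CPM, read counts scaled to the library's total with TMM factors, and genes whose log2 CPM averaged 4 or more over the 20 libraries (5823 of all genes) are called better measured. Of these, 1.72% to 14.9% had no more than 3 counts in a tdT- CTL library, most in mice 174 and 179, whereas the share was at most 0.635% in any other library. All 14 macrophage markers were above 3 counts in every library, and their summed level in CTL mice was 16222 to 29937 CPM in tdT- and 32121 to 37109 CPM in tdT+ libraries. In LPS mice it was 17564 to 20765 CPM and 20542 to 28498 CPM. Fibroblast markers summed to 4460 CPM in the tdT- CTL library of mouse 179 and to 1010 CPM in the next, and lay between 68.5 and 356 CPM in the other groups. Neutrophil markers summed to 66.1 to 195 CPM in CTL and 306 to 1008 CPM in LPS libraries. Of the 9 markers, 7 in tdT- LPS and 5 in tdT+ LPS exceeded 3 counts in some library, against 6 and 4 in CTL. Mpo and Elane were at 0 in both LPS groups, and Mpo also in tdT+ CTL. Red-cell markers reached 765 CPM and dendritic-cell markers 556 CPM in tdT- CTL, dendritic-cell markers lay at 230 to 634 CPM in tdT- LPS, and monocyte markers at 471 to 953 CPM in tdT- CTL against 15.5 to 467 CPM elsewhere. The T and NK, B, endothelial and mast cell lists stayed at or under 125 CPM. In bulk libraries, fewer cells of a type and less RNA per cell cannot be told apart, and the part of these markers in the results below was not tested except where a value without the libraries is given.

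Complexes I to IV pass electrons from NADH and succinate to oxygen and, except for complex II, pump protons across the inner mitochondrial membrane, and complex V uses that gradient to make ATP. Most of their subunits are encoded in the nucleus, whereas a few catalytic core subunits come from mitochondrial DNA and are not members here. In macrophages, LPS is known to shift metabolism towards glycolysis, and the respiratory chain then also serves as a source of signalling metabolites and reactive oxygen.

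Nuclear respiratory chain genes share promoter motifs, and the motifs were counted in the RefSeq promoters (GRCm38.p6, 300 bases, 250 before and 50 after the start) that could be matched for 70 of the 85 members. The NRF1 core GCGCATGC, read on both strands, was in 10 of 70 members (14.3%) and in 2.8% of 27025 promoters. The GABP and ETS core CCGGAAG was in 15 members (21.4%) and 9.12% of all promoters, and the YY1 core AAGATGG in 10 members (14.3%) and 6.48% of all promoters. Among the 12219 promoters of genes tested here the shares were 4.92%, 16.3% and 6.92%. The 3 stretches below show such a motif in capitals, each as the 90 bases that end just before the gene on the minus strand. They belong to Ndufa6 of complex I (chr15:82354323-82354412, NRF1 core as reverse complement) and to Uqcr11 (chr10:80406831-80406920) and Uqcrh (chr4:116075072-116075161) of complex III, which carry the GABP and ETS core, in Uqcrh as reverse complement.
Ndufa6: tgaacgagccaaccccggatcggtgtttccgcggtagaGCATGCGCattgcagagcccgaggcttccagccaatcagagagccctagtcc
Uqcr11: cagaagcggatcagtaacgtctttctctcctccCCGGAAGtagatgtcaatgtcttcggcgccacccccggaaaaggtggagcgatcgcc
Uqcrh: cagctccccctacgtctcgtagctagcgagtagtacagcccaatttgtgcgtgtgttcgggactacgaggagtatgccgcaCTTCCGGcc

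The members were well covered: 76 of 85 had more than 3 counts in all 20 libraries and 74 were better measured. Scaled by summed exon length (GENCODE M21, matched for 79 members), the median level was 35.8 CPM per kb in complex I, 82.3 in complex II, 62.8 in complex III, 40.8 in complex IV and 70.8 CPM per kb in complex V. Highest per length were Cox6b1, a small subunit at the dimer face of cytochrome c oxidase, at 376 CPM per kb, and Cox6a1 at 349 CPM per kb. In complex V the head subunits Atp5f1a (alpha) and Atp5f1b (beta) led at 187 and 126 CPM per kb. Most of the RNA came from complexes I and V: their shares of the members' summed CPM in the 4 groups averaged 29.6% to 33.3% and 31.4% to 33.1%.

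Tissue-restricted paralogues were far below their widely expressed counterparts. Cox6a1 averaged 194 to 328 CPM by group against 0.242 to 3.74 CPM for Cox6a2, the heart and muscle form. Cox7a2 averaged 92.8 to 136 CPM and its muscle counterpart Cox7a1 0 to 1.05 CPM. Cox6b1 averaged 206 to 379 CPM and the testis form Cox6b2 1.4 to 8.89 CPM. Cox7b averaged 76.1 to 142 CPM and Cox7b2 at most 0.111 CPM, and Ndufa4 126 to 167 CPM against at most 0.388 CPM for Ndufa4l2. Cox8a, at 137 to 213 CPM, was the Cox8 form that met the count minimum. Of the 3 genes for the c-ring of ATP synthase, which encode the same mature protein, Atp5mc3 averaged 146 to 259 CPM, Atp5mc1 34.3 to 54.2 CPM and Atp5mc2 5.03 to 7.86 CPM. Ndufb4 averaged 11.3 to 22.7 CPM and its copies Ndufb4b and Ndufb4c at most 0.563 and 0.378 CPM. Atp5mg, the g subunit of ATP synthase, averaged 0.172 to 2.92 CPM. Levels of subunits with near-identical copies are uncertain, since the handling of reads that match several places was not stated.

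By complex, the tdT- CTL libraries had the highest mean subunit RNA for complexes I, III, IV and V, and the largest SD for all 5 complexes. Summed complex I CPM was 3618, 2548, 3975, 4250 and 2852 in tdT- CTL of mice 174, 175, 177, 178 and 179, and 2530, 2090, 1828, 2163 and 1986 in tdT+ CTL of the same mice. In LPS mice 54, 56, 59, 60 and 61 it was 2579, 2592, 2334, 2963 and 2588 in tdT- and 2562, 2213, 2223, 2423 and 2026 in tdT+ dCAMs. Every tdT- CTL value thus lay above every tdT+ CTL value, while the LPS groups overlapped with each other and with tdT+ CTL. The mean was 3449 ± 727 CPM in tdT- CTL and 2119 ± 262 CPM in tdT+ CTL, and 2611 ± 225 and 2289 ± 207 CPM in the tdT- and tdT+ libraries of LPS mice (SD, n = 5).

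**Figure D1:**
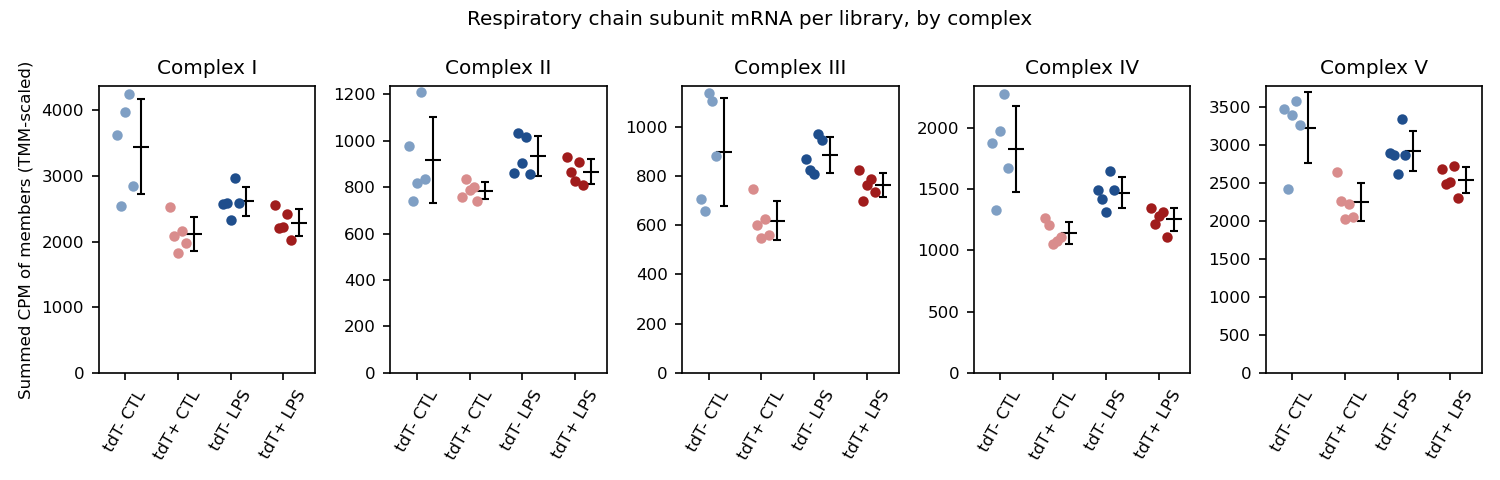
Summed TMM-scaled CPM of the members of each complex (y axis) in the 20 libraries, by group (x axis). Points are libraries and black bars are means with SD (n = 5). For complexes I and IV all 5 tdT- CTL libraries lie above all 5 tdT+ CTL libraries.

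Complex II, which has no mitochondrially encoded subunit, had the smallest difference between tdT+ and tdT- dCAMs of the 5 complexes, -14.3% in CTL and -7.2% in LPS mice. Its sum for the 4 groups, in the same order, was 916 ± 186, 785 ± 36.9, 934 ± 84.9 and 867 ± 52.6 CPM (SD, n = 5). Complex III was at 897 ± 220, 617 ± 79.4, 884 ± 72.8 and 762 ± 48.9 CPM in the same order. Complex IV was at 1827 ± 354, 1142 ± 90.7, 1472 ± 123 and 1252 ± 93.7 CPM, and complex V at 3224 ± 467, 2244 ± 248, 2918 ± 262 and 2543 ± 171 CPM. For every complex, tdT+ CTL had the lowest group mean. The share of complex II in the members' sum was 7.23% to 9.75% in tdT- CTL and 9.55% to 12.6% in tdT+ CTL.

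The core genes of complexes II and III show how uneven the tdT- CTL libraries were. Sdha, the flavoprotein of succinate dehydrogenase, was at 629, 229, 191, 399 and 225 CPM in tdT- CTL and at 277, 413, 357, 345 and 317 CPM in tdT+ CTL of the same mice. Sdhd, which anchors the enzyme in the membrane, was at 9.86, 176, 271, 334 and 137 CPM in tdT- CTL and at 92.8 to 149 CPM in tdT+ CTL, 225 to 287 CPM in tdT- LPS and 210 to 247 CPM in tdT+ LPS. One tdT- CTL library thus nearly lacked Sdhd, while all 10 LPS libraries lay above all 5 tdT+ CTL libraries. The same library of mouse 174 held 15.6 CPM of Uqcrfs1, the Rieske iron-sulfur protein of complex III, against 91.2 to 178 CPM in the other 4, and that of mouse 179 held 0.654 CPM of Ndufs1, the largest complex I core subunit, against 53.9 to 121 CPM. The core proteins Uqcrc1 and Uqcrc2 averaged 193 to 258 and 82.6 to 122 CPM by group, Uqcrb 91.3 to 141 CPM and the hinge protein Uqcrh 32.1 to 68.0 CPM. Of these, Uqcrh was lower in tdT+ than tdT- CTL libraries without overlap, by -0.84 ± 0.33 on the log2 scale (SE, adjusted p = 0.14).

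LPS changed few members in tdT- dCAMs, and most of those that changed fell. Of the 85 members, 8 fell and 2 rose at an adjusted p under 0.05 (edgeR quasi-likelihood test over all 16632 genes), against 4.85% of all genes lower and 7.67% higher. The 8 were 9.41% of the members. All of them were among the 74 better measured members (10.8%), and 10.2% of all better measured genes fell, so that the share of members was near the background. Of those 74, 8 were lower and 2 higher without overlap between the 5 LPS and the 5 CTL libraries, against 7.09% and 9.91% of all better measured genes.

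The smallest p was that of Atp5if1, the inhibitory factor that keeps ATP synthase from running in reverse, on chr4:132530555-132533659 (GRCm38, GENCODE M21, minus strand, protein coding, listed there as Atpif1). In tdT- CTL it was at 208, 165, 234, 271 and 139 CPM in mice 174, 175, 177, 178 and 179, and in tdT- LPS at 55.6, 49.1, 37.9, 48.1 and 31.8 CPM in mice 54, 56, 59, 60 and 61. In tdT+ CTL it was at 138, 133, 124, 123 and 102 CPM, and in tdT+ LPS at 50.8, 37.8, 39.9, 37.8 and 22.6 CPM. No LPS library reached the lowest CTL library of either population. Atp5if1 fell by 2.19 on the log2 scale in tdT- dCAMs (SE 0.28, 4.57-fold lower, adjusted p = 1.79e-05) and by 1.71 in tdT+ dCAMs (SE 0.28, 3.28-fold lower, adjusted p = 0.000256). It was called in each of the 22 alternative settings in both populations, and the difference between its LPS effects was 0.48 ± 0.38 (SE, adjusted p = 0.76). The alpha and beta subunits of the head it binds were not called: Atp5f1a differed by 0.21 ± 0.19 and Atp5f1b by 0.31 ± 0.16 on the log2 scale in tdT- dCAMs (SE, neither passed the test).

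**Figure D2:**
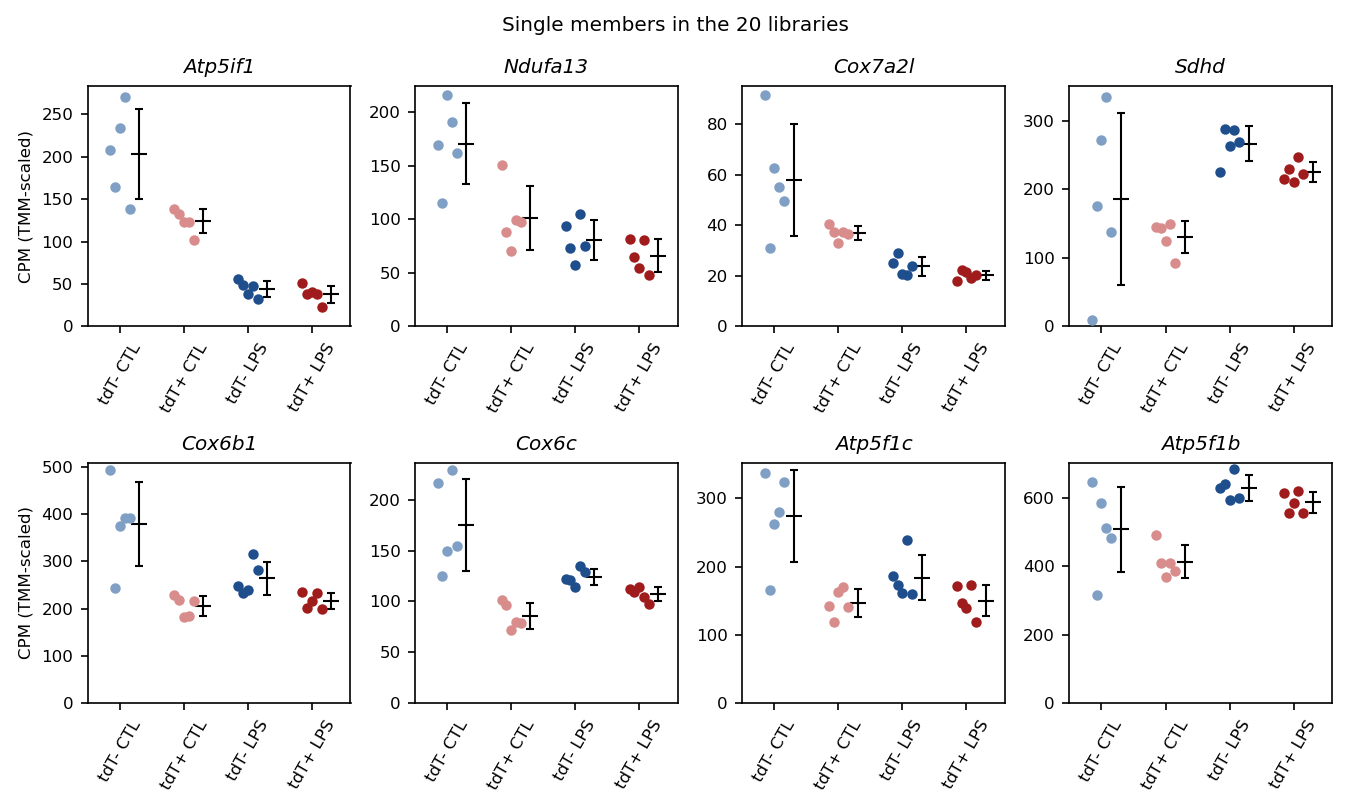
TMM-scaled CPM (y axis) of 8 members in the 20 libraries, by group (x axis), with means and SD in black (n = 5). Atp5if1 is below 56 CPM in all 10 LPS libraries and above 101 CPM in all 10 CTL libraries, whereas Atp5f1b is highest in LPS.

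In complex I, 6 accessory subunits fell in tdT- dCAMs. Ndufb11, Ndufb10, Ndufa13, Ndufa7, Ndufa2 and Ndufa3 differed by -1.36 ± 0.33, -1.10 ± 0.26, -1.08 ± 0.28, -0.88 ± 0.26, -0.83 ± 0.27 and -0.80 ± 0.24 on the log2 scale (SE), with adjusted p from 0.00719 to 0.0481. Ndufa13, also known as a cell-death regulator under the name GRIM-19, was at 169, 115, 216, 191 and 162 CPM in tdT- CTL and 93.9, 73.4, 56.9, 105 and 75.2 CPM in tdT- LPS. Its groups did not overlap, and neither did those of Ndufa2 and Ndufa7, whereas the groups of Ndufb10, Ndufb11 and Ndufa3 did. The core subunits Ndufs1, Ndufs3, Ndufs7, Ndufs8, Ndufv1 and Ndufv2 lay between -0.74 and -0.07 on the log2 scale, and none of these 6 passed the test.

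No member of complexes II and III was called, and 2 of complex IV were. Cox7a2l, a factor that joins complexes III and IV into supercomplexes, was at 91.5, 30.9, 62.7, 55.1 and 49.6 CPM in tdT- CTL and 25.3, 29.0, 20.6, 20.2 and 23.8 CPM in tdT- LPS. It fell by 1.29 on the log2 scale (SE 0.37, adjusted p = 0.0241), and in tdT+ dCAMs, where its groups did not overlap either, the difference was -0.87 ± 0.36 (SE, adjusted p = 0.185). Cox7a1 had 0 counts in all 5 tdT- CTL libraries and 10 to 29 counts in the tdT- LPS libraries, and was called higher (adjusted p = 0.0037). Its mean in tdT- LPS was 1.05 CPM, with 2.03 CPM in mouse 54 and 0.61 to 0.98 CPM in the others. That mean was 14.2-fold above a floor of 3 counts over the CTL group. In tdT+ dCAMs, with at most 4 counts in a CTL library, Cox7a1 differed by 1.56 ± 1.10 (SE, adjusted p = 0.517). In both populations its level remained far below that of Cox7a2.

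By complex, the median log2 fold change in tdT- dCAMs was -0.39 in complex I, 0.04 in complex II, 0.01 in complex III, -0.19 in complex IV and -0.23 in complex V, and 0.02 over all genes tested. Of the 39 complex I members, 34 were below 0, beside 47.5% of all genes tested and 50.2% of better measured genes. Among better measured genes that are not members, it was 70.5% under 1000 bases of exon length and 68% at 1000 to under 2000 bases. At 2000 to under 4000 bases it was 51.2%, and at 4000 bases or more 45.3%. Leaving out each mouse in turn, the medians of complexes II and III changed sign, between -0.09 and 0.26 and between -0.06 and 0.15, and without the tdT- CTL libraries of mice 174 and 179 they were -0.04 and -0.14. Without mouse 178, complex I was at -0.22, complex IV at -0.10 and complex V at -0.12, and complex IV was at -0.33 without mouse 177 and -0.29 without mouse 59. The number called depended on the fit, and so did the share of all genes called, 12.5% in the main fit. DESeq2 called 28 members (19.5% of all genes) and the mouse block in limma-voom 23 (29.1%). A fit of only these 10 libraries called 2 (6.08%). Without the tdT- CTL libraries of mice 174 and 179, 21 members were called (17.7%), of which 20 fell. Leaving out both libraries of single mice gave 4 to 6 for each of the 5 LPS mice (8.62% to 9.28%). It gave 16 without mouse 175 (16.8%). Across 22 alternative settings Ndufb10 and Ndufb11 were called in 21, Ndufa13 in 19, Cox7a2l in 15, Ndufa3 in 14, Ndufa7 in 13 and Ndufa2 in 11.

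**Figure D3:**
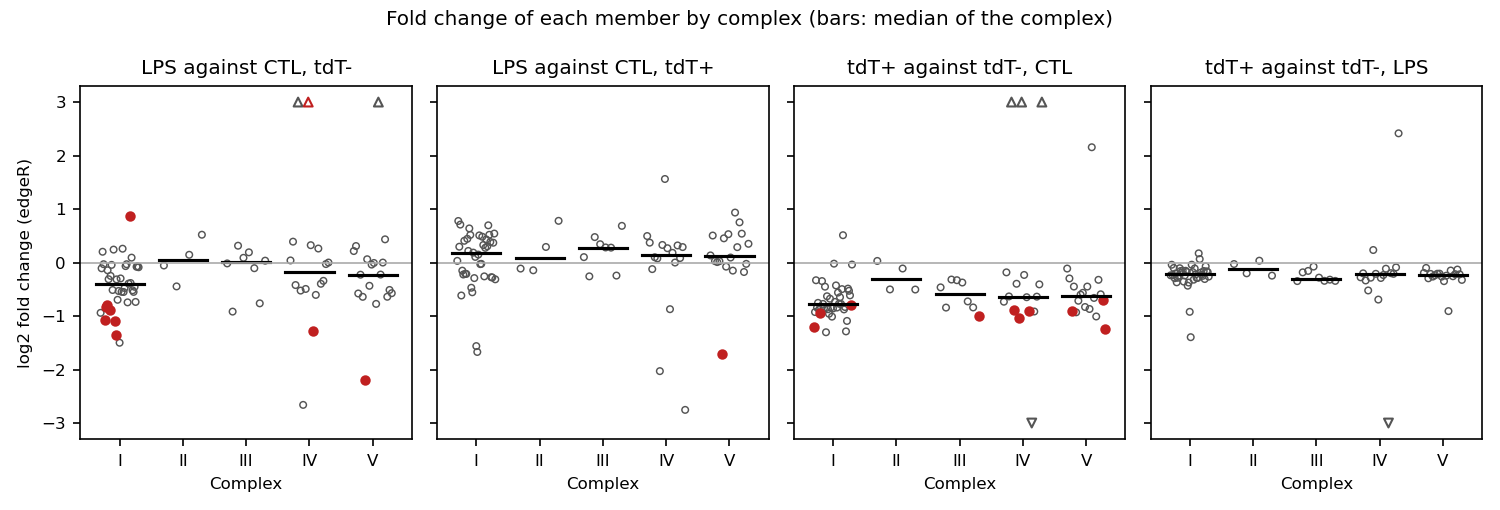
Log2 fold change (y axis, edgeR) of each of the 85 members by complex (x axis) in 4 comparisons. Red marks an adjusted p under 0.05, black bars are medians, and triangles are members beyond 3 on the log2 scale, all of them with a mean under 3 CPM. In the 2 panels of tdT+ against tdT- nearly all points lie below 0.

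In tdT+ dCAMs, Atp5if1 was the only member called in the LPS comparison. It made up 1.18% of the members, against 2.83% of all genes lower and 3.79% higher, and 11 members had an unadjusted p under 0.05. The complex medians were 0.19, 0.09, 0.28, 0.14 and 0.11 for complexes I to V, beside 0.01 over all genes tested and 0.12 over the 5823 better measured genes. Complex I was at 0.04 without mouse 54 and 0.10 without mouse 175, and complex II at 0.03 and 0.13. Complex IV ran from 0.09 without mouse 178 to 0.25 without mouse 59, with 0.23, 0.22 and 0.21 without mice 56, 61 and 174, and complex V was 0.07 without mouse 54 and 0.18 without mouse 174. Of the 74 better measured members, 14 were higher without overlap between LPS and CTL libraries (18.9%, against 19.5% of better measured genes) and 4 lower (5.41%, against 13.3%).

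The 2 members nearest to the threshold were subunits of ATP synthase. Atp5f1b was at 494, 411, 369, 412 and 386 CPM in tdT+ CTL and at 615, 557, 587, 622 and 558 CPM in tdT+ LPS. The groups did not overlap, and the log2 difference was 0.50 ± 0.16 (SE, adjusted p = 0.0705). Atp5pb, a stalk subunit, differed by 0.54 ± 0.19 (adjusted p = 0.112), Uqcrq of complex III by 0.69 ± 0.28 (adjusted p = 0.167) and Sdhd, a membrane anchor of complex II, by 0.78 ± 0.47 (adjusted p = 0.398). The catalytic Sdha differed by -0.11 ± 0.26, and Sdhb and Sdhc by -0.14 ± 0.22 and 0.29 ± 0.26. When only the 10 tdT+ libraries entered the fit, 15 of 84 members were called, 12 higher and 3 lower, beside 20.5% of all genes. Limma with library weights called 17 of 85, beside 23.2% of all genes. DESeq2 called 9 (10.9% of all genes) and the mouse block 2 (10.6%). The fit without the tdT- CTL libraries of mice 174 and 179 called 5 (11.8%). Without mouse 174 it was 3 (7.53%) and without mouse 175 it was 2 (5.92%).

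The LPS effects of the 2 populations were compared directly. The difference of the LPS effects, tdT+ minus tdT-, passed the test for no member in edgeR, against 1.17% of all genes lower and 0.0902% higher, and 4 members had an unadjusted p under 0.05. DESeq2 called 2 members (4.67% of all genes) and the mouse block 0 (3.75%). The median difference was 0.46 on the log2 scale over the 85 members and 0.03 over all genes. Above 0 were 72 of the 85 members and 8439 of the 16632 genes tested. Other better measured genes of like exon length were also above 0, with a median of 0.54 under 1000 bases (0.46 in the 16 members) and 0.38 at 1000 to under 2000 bases (0.47 in 26 members), and with 0.15 and -0.04 in the longer classes (0.45 and 0.50 in 18 and 9 members). By complex the median difference was 0.55, 0.20, 0.32, 0.37 and 0.47 for complexes I to V. Without mouse 178 complex II turned to -0.11, with the mouse block to -0.02, and without mice 54 and 175 in turn it was 0.05 and 0.12. Complex IV was 0.18 without mouse 177 and 0.19 without mouse 178, and complex III 0.19 without mouse 177. These values rest partly on the tdT- CTL libraries, which also enter the comparison within tdT- dCAMs and that between populations in CTL mice.

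In CTL mice, tdT+ dCAMs had lower subunit mRNA than tdT- dCAMs of the same animals. Of the 85 members, 10 were lower (11.8%) and none higher, against 1.58% of all genes lower and 3.1% higher. Of the 74 better measured members, 13.5% were lower, against 3.42% of better measured genes. In all, 79 of 85 log2 fold changes were below 0, beside 50.1% of all genes tested and 55% of better measured genes. These signs are not independent, since the members share all libraries. Under 1000 bases of summed exon length, 16 of 16 members and 95.5% of other better measured genes were below 0. At 1000 to under 2000 bases it was 26 of 26 members and 79.4%. At 2000 to under 4000 bases it was 17 of 18 and 60.8%, and at 4000 bases or more 8 of 9 and 45.6%. The medians for complexes I to V were -0.77, -0.31, -0.60, -0.64 and -0.63, against -0.01 over all genes tested. In complex V all 16 better measured members were below 0. Without mouse 178 the median of complex II was -9.99e-05, while those of the other complexes stayed between -0.85 and -0.41 whichever mouse was left out.

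The 10 lower members came from complexes I, III, IV and V. Cox6b1 was at 494, 244, 375, 393 and 392 CPM in tdT- CTL and at 228, 218, 182, 184 and 216 CPM in tdT+ CTL. The groups did not overlap, and Cox6b1 was lower in tdT+ dCAMs by a log2 fold change of -0.88 ± 0.18 (SE, 1.85-fold, adjusted p = 0.00645). Cox6c, a small subunit of complex IV, went from 217, 125, 150, 229 and 155 CPM in tdT- to 101, 96.5, 71.7, 79.3 and 78.7 CPM in tdT+ dCAMs, again without overlap (-1.03 ± 0.22, adjusted p = 0.00812). Cox7b, of the same complex, differed by -0.90 ± 0.25 (adjusted p = 0.0446).

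In complex V, the gamma subunit Atp5f1c, which forms the rotating shaft, was lower by -0.90 ± 0.22 (adjusted p = 0.0183), with groups that overlapped only through the tdT- library of mouse 175. The peripheral stalk subunits Atp5po and Atp5pf were lower by -1.25 ± 0.34 (adjusted p = 0.0363) and -0.71 ± 0.19 (adjusted p = 0.0382). In complex III, Uqcrq was at 136, 82.2, 136, 132 and 83.9 CPM in tdT- and 75.8, 58.7, 30.7, 62.2 and 58.6 CPM in tdT+ dCAMs (-0.99 ± 0.28, adjusted p = 0.0433). In complex I, the accessory subunits Ndufa3 and Ndufa1 were lower by -0.94 ± 0.24 and -1.21 ± 0.35 (adjusted p = 0.0258 and 0.0475), and the core subunit Ndufv2, which carries an iron-sulfur cluster, by -0.79 ± 0.22 (adjusted p = 0.046). The head subunits of ATP synthase, Atp5f1a (alpha, -0.11 ± 0.19) and Atp5f1b (beta, -0.30 ± 0.16), and Sdha (0.03 ± 0.26) were not called.

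How many members passed this test varied widely with the fit. The share of all genes called was 4.68% in the main fit. DESeq2 called 44 members, 43 of them lower (11.9% of all genes), and the mouse block in limma-voom 23 (14.6%). A fit of the 10 CTL libraries alone called 0 both without and with mouse as a fixed block, with 21 and 3 members at an unadjusted p under 0.05. Those 2 fits called 0.0555% and 0.0208% of all genes, so that 0 members called says little about the members. Without the tdT- CTL libraries of mice 174 and 179, 27 were called, all lower (8.3%). Leaving out both libraries of mouse 174 gave 17 (5.19%), of mouse 177 it gave 4 (4.57%) and of mouse 178 it gave 5 (4.81%). Of the 10 members, Cox6c was called in 16 of 18 alternative settings, Cox6b1 in 15, Atp5f1c in 14 and the other 7 in 8 to 12.

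In LPS mice the difference had the same sign but was smaller. The medians for complexes I to V were -0.22, -0.11, -0.30, -0.22 and -0.23, against 0.00 over all genes. Of the members, 80 of 85 were below 0, beside 48.7% of all genes tested. Among other better measured genes it was 79.5% under 1000 bases of exon length and 69.1% at 1000 to under 2000 bases. In the longer classes it was 49.8% and 40.5%. Without mouse 56 complex II was at -0.07. No member passed the test (0.0301% of all genes were lower and 0% higher), none had an unadjusted p under 0.05 in edgeR, and no alternative called any. With only the 10 LPS libraries in the fit, 18 members had an unadjusted p under 0.05, and with mouse as a fixed block 23, in both cases all lower.

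Within mice the sign was more uniform than the test shows. Of the 74 better measured members, 31 were lower in the tdT+ library of all 5 CTL mice (41.9%, against 7.25% of the 5823 better measured genes whatever their length) and 0 were higher in all 5 (7.45% of genes). In LPS mice 26 were lower in all 5 (35.1%, against 7.59%) and 0 were higher (9.12% of genes). By exon length, 6 of 16, 15 of 26, 5 of 18 and 1 of 9 members from the shortest to the longest class were lower in all 5 CTL mice, against 38.6%, 19%, 8.06% and 3.29% of other genes, so that the shortest members did not stand out. In LPS mice it was 8, 8, 5 and 2 members, against 25%, 14.3%, 9.05% and 4.47% of other genes. The CTL and LPS mice are separate animals, and 13 members were lower in all 10 (17.6%, against 1.75% of genes), with 0 higher in all 10 (1.48% of genes). They were Ndufa1, Ndufa13, Ndufb1, Ndufb3, Ndufc2 and Ndufs7 of complex I, Sdhb of complex II, Cox5a and Cox6b1 of complex IV, and Atp5f1c, Atp5mj, Atp5pf and Atp5po of complex V. The summed CPM of all members was lower in tdT+ than in tdT- dCAMs in 5 of 5 CTL mice, with ratios from 0.553 to 0.91, and in 5 of 5 LPS mice, with ratios from 0.797 to 0.96.

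**Figure D4:**
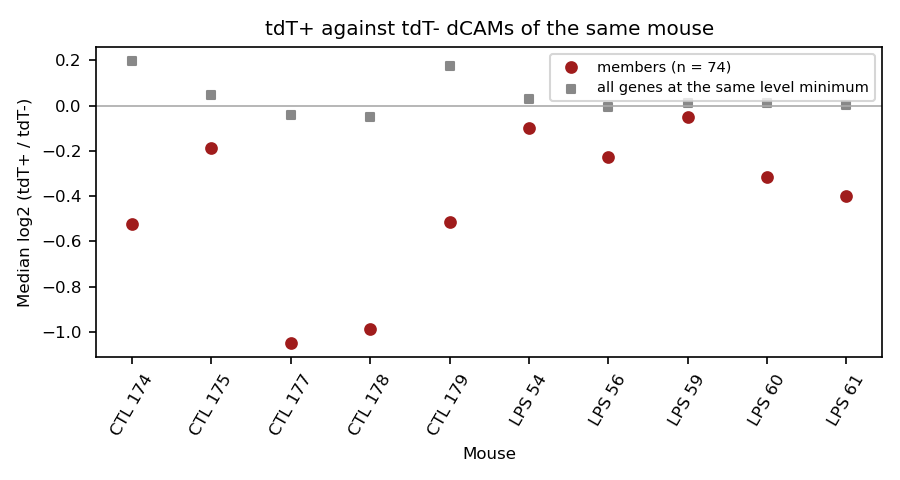
Median log2 ratio of tdT+ to tdT- dCAMs (y axis) of the same mouse (x axis, treatment and mouse number), for the 74 better measured members (red) and all 5823 better measured genes (grey squares). The members lie below 0 in all 10 mice, from -0.05 to -1.05, and all genes lie between -0.05 and 0.20.

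The size differed between animals. In CTL mice the median member ratio was -0.19 on the log2 scale in mouse 175, -0.51 and -0.52 in mice 179 and 174, -0.99 in mouse 178 and -1.05 in mouse 177. In LPS mice it ran from -0.05 in mouse 59 to -0.40 in mouse 61. Mouse 175 had the tdT- CTL library with the lowest member sum, at 7691 CPM, and the fewest genes at or under 3 counts, at 1.72%.

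Transcript length moved with the comparison of populations and with the LPS comparison in tdT- dCAMs. In CTL mice, the 88 other better measured genes with a summed exon length under 1000 bases had a median log2 fold change of -0.68, close to -0.81 in the 16 members of that length. At 1000 to under 2000 bases it was -0.51 in 538 other genes and -0.74 in 26 members, at 2000 to under 4000 bases -0.18 in 1713 genes and -0.66 in 18 members, and at 4000 bases or more 0.07 in 3286 genes and -0.60 in 9 members. In LPS mice the medians of other genes went from -0.17 to 0.05 over these classes and those of members from -0.22 to -0.10. The members' median thus lay below that of other genes in all 4 length classes of both comparisons.

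For LPS in tdT- dCAMs the members had a median of -0.47 against -0.63 in other genes under 1000 bases, -0.43 against -0.39 at 1000 to under 2000 bases and -0.07 against -0.04 at 2000 to under 4000 bases, with 9 longer members at -0.31 against 0.09. Across the 69 better measured members with a length, the correlation of log2 fold change with log2 length for tdT+ against tdT- was 0.18 in CTL and 0.46 in LPS animals, as a description across genes that share all libraries. The part of length in these differences was not tested.

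**Figure D5:**
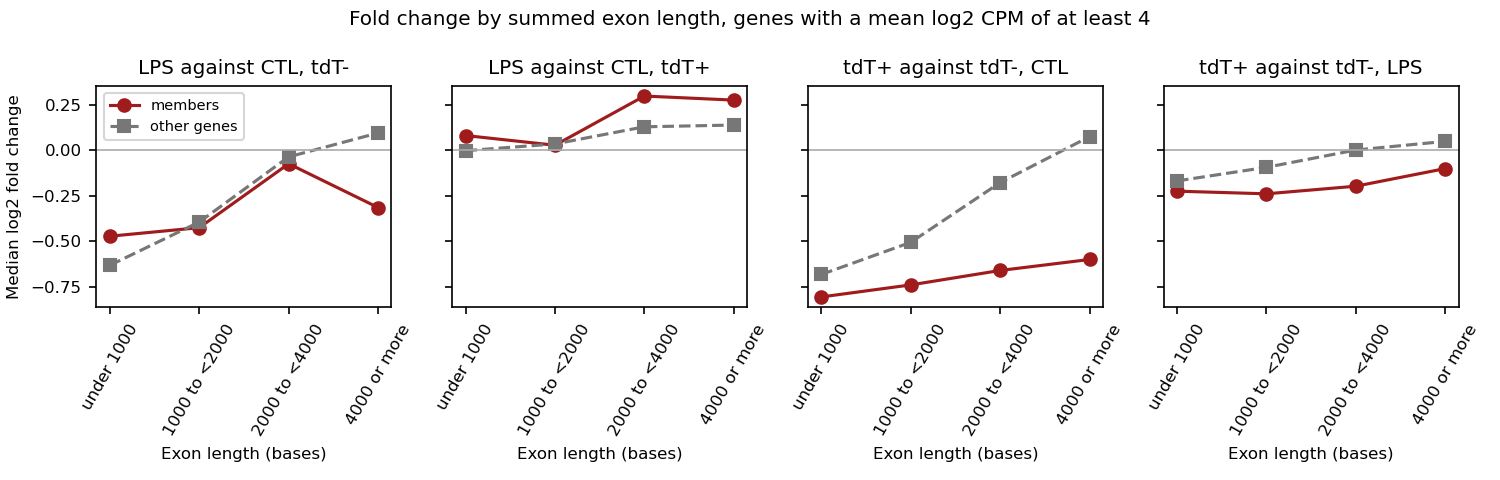
Median log2 fold change (y axis) of better measured members (red) and other genes (grey, dashed), by summed exon length in bases (x axis), in 4 comparisons. Members number 16, 26, 18 and 9 from the shortest to the longest class. For tdT+ against tdT- the members lie below the other genes in every class, by more in the longer classes of CTL mice, and for LPS against CTL in tdT- dCAMs the members are higher under 1000 bases and lower in the other classes.

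Genes that work with the members were described by fixed lists. Of 6 subunits and carriers that the symbol rule leaves out, Cox4i1, the largest nuclear-encoded subunit of complex IV, fell with LPS in tdT- dCAMs (-0.92 ± 0.21, SE, adjusted p = 0.00619) and was lower in tdT+ than tdT- dCAMs of CTL mice (-0.99 ± 0.21, adjusted p = 0.00842). Cycs, the electron carrier cytochrome c, rose with LPS in tdT+ dCAMs (1.42 ± 0.38, adjusted p = 0.0224). AA467197, related in sequence to the complex IV subunit Ndufa4, was at 0 in 3 of 5 libraries in each CTL group and at most 22.8 CPM, and at 74.8 to 235 CPM in tdT- LPS and 68.2 to 135 CPM in tdT+ LPS. It passed the test in tdT+ dCAMs (adjusted p = 0.0284) and not in tdT- dCAMs (adjusted p = 0.0793), although the groups overlapped in neither. Ndufa4 itself differed by -0.03 ± 0.20 and 0.29 ± 0.20 on the log2 scale.

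Few assembly factors and mitochondrial ribosome proteins were called with LPS, near or below the shares of all genes. Those shares were 7.67% higher and 4.85% lower for tdT-, and 3.79% and 2.83% for tdT+ dCAMs. The TCA cycle and carrier lists are short, and where 1 or 2 of their genes were called, the share exceeded that of all genes. Of 50 assembly factors tested, 1 rose and 2 fell with LPS in tdT- dCAMs and 1 fell in tdT+ dCAMs, and of 79 mitochondrial ribosome proteins 1 rose and 4 fell in tdT- and 1 rose in tdT+ dCAMs. Ndufaf7, a methyltransferase needed for complex I assembly, fell in both populations (-3.23 ± 0.89 and -3.78 ± 0.92, SE, adjusted p = 0.0199 and 0.0121). Mrpl52 of the large ribosomal subunit rose in both (0.91 ± 0.27 and 1.81 ± 0.27, adjusted p = 0.0291 and 0.00012). Of 16 genes of the TCA cycle and pyruvate dehydrogenase, Idh3g and Fh1 fell in tdT- dCAMs (-1.31 ± 0.25 and -1.96 ± 0.45, adjusted p = 0.000977 and 0.00547), and Mdh2, malate dehydrogenase, rose in tdT+ dCAMs (1.15 ± 0.23, adjusted p = 0.00266). Of 7 carriers and channels, the uncoupling protein Ucp2 rose in both populations (1.07 ± 0.15 and 1.06 ± 0.15, adjusted p = 5.84e-05 and 6.97e-05), and Slc25a5, an ADP/ATP carrier, rose in tdT+ dCAMs (0.58 ± 0.17, adjusted p = 0.0388). None of 12 regulators, Ppargc1a, Nrf1, Gabpa, Tfam and Esrra among them, passed the test in any comparison.

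Most of these lists also lay below 0 for tdT+ against tdT- dCAMs of CTL mice, where 1 assembly factor was higher and 1 lower, and 3 mitochondrial ribosome proteins, 1 TCA cycle gene and 2 carriers were lower, beside 3.1% of all genes higher and 1.58% lower. The median was -0.63 over the 50 assembly factors, -0.61 over the 79 mitochondrial ribosome proteins, -0.33 over the 16 TCA cycle genes and -0.50 over the 7 carriers and channels, and 0.37 over the 12 regulators. In LPS mice the medians were -0.09, -0.10, -0.01, -0.03 and 0.03, against -0.22 over the 85 members.

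Among replicates, the members had a lower median SD than the better measured genes as a whole, which were not matched to them on level. The median SD on the log2 scale was 0.53 for the 74 better measured members against 1.63 for all 5823 genes in tdT- CTL, 0.26 against 0.44 in tdT+ CTL, 0.18 against 0.27 in tdT- LPS and 0.15 against 0.24 in tdT+ LPS. Members also moved together from library to library: in tdT- LPS, 68 of 74 members were above their group mean in mouse 60 and 6 of 74 in mouse 59, and in tdT+ LPS 61 were above it in mouse 54 and 9 in mouse 61.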

How the data were processed

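The deposited count table gives whole-number counts per gene symbol for 20 SMART-Seq libraries (no molecular identifiers, so precision beyond counting error is unknown). Per the labels and methods, the authors used bcl2fastq 2.20, STAR 2.7.11a, featureCounts (2.0.6 in the processing notes) and DESeq2 1.46.0. The genome build was not settled by the sources, so coordinates here are those of the named reference. For its own LPS comparison the study removed oxidative phosphorylation genes before testing.

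Genes with a total of at least 10 counts were tested with edgeR 4.0.16 (R 4.3.3; TMM factors, estimateDisp, glmQLFit, glmQLFTest, 1 mean per group, all 20 libraries, Benjamini-Hochberg adjustment over all genes). CPM values are TMM-scaled, and log2 CPM uses a prior count of 2. SE is the log2 fold change divided by the square root of F. Each gene has 1 estimate of spread shared by all groups. The median SD of better measured genes on the log2 scale was 1.63 in tdT- CTL and 0.24 to 0.44 in the other groups. SE and adjusted p can therefore be too small where tdT- CTL libraries enter and too large in the other comparisons. Calls need an adjusted p under 0.05. The script was tested on simulated data. Named genes were, per complex and comparison, the 2 called members per direction with the smallest p, the 2 highest and the lowest by CPM, core subunits, paralogues, and members with a library far from its group, and for other lists up to 3 genes by smallest p in the LPS comparisons. The remaining called members, AA467197, the members closest to the threshold and those lower in all mice were named after their values were seen. Alternatives were DESeq2 1.42.0, limma 3.58.1, other scalings, filters, library sets and mouse blocks. Members and lists were chosen with earlier results of these data known. The libraries of a mouse come from 1 animal, so mouse numbers pair them, and their deviations from the group means correlated at 0.000914 to 0.119 over genes. Library correlations within groups were at most 0.963, so that none was a copy. Values of 1 called member are not reported here, though counts and sums include it.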

Additional observations from a re-analysis of the deposited data

Results flagged for a closer look

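In 357 groups of 5 values (members with over 3 counts in a library of the group, and the summed CPM of the complexes and of all members), 28 (7.84%) held a library whose gap to its nearest neighbour was over 0.71 of the group's range, where chance flags about 1 in 20. Of the sums, complex V was flagged: its tdT- CTL library of mouse 175 was at 2416 CPM and the others at 3256 to 3580 CPM.

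In tdT+ CTL, mouse 174 was highest for Atp5f1d (169 CPM), Atp5po (42.4), Cox6a2 (6.49), Ndufa1 (69.9), Ndufb6 (27.9), Ndufs6 (60.5) and Ndufv1 (99.2 CPM, others 49.6 to 62.6). Mouse 175 was lowest for Ndufa10 (24.3 CPM, others 56.3 to 66.0) and Ndufb4 (7.43 CPM), and mouse 177 was lowest for Uqcrh (23.6 CPM) and highest for Ndufa4l2 (1.73 CPM).

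In tdT- LPS, mouse 60 was highest for Atp5f1a (750 CPM), Atp5pb (290), Cox7b (116) and Ndufb5 (79.3 CPM). Mouse 54 was highest for Cox7a1 (2.03 CPM) and lowest for Ndufa5 (24.1 CPM), mouse 56 was highest for Cox6b2 (2.02 CPM) and mouse 59 for Cox7b2 (0.553 CPM). In tdT+ LPS, mouse 61 was lowest for Ndufc1 (50.8 CPM), Ndufc2 (73.4) and Sdha (283 CPM), mouse 54 was highest for Uqcrc1 (288 CPM) and mouse 56 for Atp5mc2 (6.52 CPM).

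In tdT- CTL, single libraries alone had counts of Atp5mg (mouse 177, 0.859 CPM), Cox6a2 (mouse 175, 1.21 CPM) and Cox7b2 (mouse 178, 0.452 CPM).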

How the results depend on the processing

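The number of members called was 10 for LPS in tdT- dCAMs, 1 for LPS in tdT+ dCAMs, 10 for tdT+ against tdT- in CTL mice, and 0 for that comparison in LPS mice and for the difference of the LPS effects. In the first 3, it moved to 28, 9 and 44 with the DESeq2 test, to 23, 2 and 23 with mouse as a replicate block in limma-voom, and to 2, 15 and 0 with only the 10 libraries compared. The share of all genes called moved as well, from 12.5%, 6.61% and 4.68% to 19.5%, 10.9% and 11.9% with DESeq2. It was 29.1%, 10.6% and 14.6% with the mouse block and 6.08%, 20.5% and 0.0555% with only those 10 libraries. With mouse as a fixed block in edgeR, the CTL comparison had 0 (0.0208% of all genes), and the median log2 fold change of all genes moved to 0.76. The number called was 5 and 3 for LPS in tdT- dCAMs and the CTL comparison without a filter (8.11% and 2.72% of all genes). With filterByExpr it was 18 in each (19% and 8%). Library weights gave 17 for LPS in tdT+ dCAMs and 1 for the CTL comparison (23.2% and 2.29% of all genes). The first letter of the sample titles as covariate gave 5 for the CTL comparison (3.97%). That letter is F for CTL mice 174, 175 and 179 and LPS mice 54 and 56, and M for the other mice, so it is not balanced between treatments. Of alternatives chosen after seeing the data, leaving out the tdT- CTL libraries of mice 174 and 179 gave 21, 5 and 27 (17.7%, 11.8% and 8.3% of all genes). Testing only the 5823 better measured genes gave 22, 3 and 16 (21.4%, 16.7% and 5.84% of those genes). DESeq2 called 2 members for the difference of the LPS effects (4.67% of all genes). The cause of these changes was not tested. Leaving out each mouse gave 4 to 16, 1 to 3, 4 to 17, 0 to 0 and 0 to 1, with the highest values without mouse 175, 174, 174 and, for the difference, 175. The share of all genes called ran from 8.62% to 16.8%, 4.59% to 7.53%, 4.57% to 8.68%, 0.00611% to 0.0183% and 0.386% to 3.94%. No called member changed sign. Scaling moved no group mean of a summed complex by more than its SD. For complex IV, the mean of log2 CPM gave 0.13 for LPS in tdT- dCAMs and -0.14 for the CTL comparison, where the sum gave -0.31 and -0.68. In that mean, 5 paralogues with a mean under 10 CPM weigh as much as the others. Their part in the change was not tested. The median log2 fold change of a complex moved by less than the combined replicate SD of the groups compared (root of the summed squares). This holds for all settings except the fit of only the better measured genes, where it was not taken. Over better measured members of the main fit, complex IV was at -0.40 for LPS in tdT- dCAMs, in place of -0.19. The median changed sign for complexes II and III for LPS in tdT- dCAMs (filters, thinning, single mice left out, and without the libraries of mice 174 and 179). It also did so for complex II in the difference of the LPS effects (mouse block, without mouse 178). The depth of 6017650 to 18925908 counts left members under about 1 CPM within counting error.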
